A study of Mus musculus with 8 samples.

Results

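Axon guidance genes of the semaphorin, plexin, ephrin, Eph, Slit, Robo, netrin and Unc5 families were examined in EGFP positive, *Bapx1* expressing cells that FACS had separated from E12.5 mouse spleens. Members were the genes whose annotated symbol starts with Sema, Plxn, Epha, Ephb, Efna, Efnb, Slit1 to Slit3, Robo, Ntn or Unc5 and whose probes include any with a detection p under 0.05 on 4 or more of 8 arrays. The platform annotation holds 166 probes of 66 such genes, and 43 genes with 77 probes were kept, out of 10766 genes of the whole series. The remaining 23 genes are accounted for at the end of the results. The signal on these arrays chose which genes were kept, and the families were chosen with earlier results of the same comparison known.

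The samples were 4 populations of *Bapx1* null cells and 4 of *Bapx1* wildtype cells, all of strain C57BL/6J;129, each hybridized to its own single-colour Illumina MouseWG-6 array. The null embryos were homozygous for an allele in which EGFP was inserted behind the *Bapx1* start codon, and the wildtype embryos carried EGFP linked through an IRES to the 3' UTR of an intact *Bapx1* allele, written in the study as heterozygous. Cells of both genotypes were therefore taken by the activity of the *Bapx1* promoter, and loss of the gene cannot be told apart from effects of the reporter allele, of its copies or of a shift in the cells that are sorted. The number of embryos behind a replicate is not given, so the p-values measure the spread between these populations only. *Bapx1*, current symbol *Nkx3-2*, is the targeted homeobox gene, and its probe ILMN_2687592 was higher in null cells (log2 intensity 7.04 in null and 4.63 in wildtype cells, where it was not above background on any array). That direction is opposite to a loss of the RNA. The position of the probe relative to the stretch removed from the null allele is not known, so whether the value checks the genotype labels cannot be told, and null and wildtype name the groups as labelled in every direction given here.

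Guidance families work as ligands and receptors on neighbouring cells. Semaphorins bind plexins, the secreted class 3 semaphorins with neuropilins as co-receptors, Slits bind Robo receptors, secreted netrins bind Unc5 receptors and *Dcc*, and ephrins bind Eph receptor tyrosine kinases with signalling into both cells. They were described in growth cones, and they also steer endothelial, neural crest and mesenchymal cells and set borders between cell groups.

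Arrays within a genotype correlated at 0.968 to 0.992 in null and 0.988 to 0.995 in wildtype cells, and 42.0 to 44.5% of probes were detected per array. Among spleen mesenchyme markers *Nkx2-5*, *Nkx2-3*, *Tcf21* and *Barx1* were detected on all arrays (*Barx1* higher, *Nkx2-5* and *Nkx2-3* lower in null cells), while *Tlx1* and *Wt1* had no kept probe in the arrays of either genotype. Null replicate 4 stood apart from the other null arrays, with endothelial markers at a mean of -0.57 relative to wildtype against 0.76 to 1.59 on null replicates 1 to 3, and erythroid markers at -1.07 against 1.93 to 3.13. It was also the lowest null array for the neural (0.82), epithelium (0.39), smooth muscle (1.13), mesothelium (-0.17) and macrophage (-0.37) lists. It was not the lowest for spleen mesenchyme. Markers of neural and neural crest cells, as a sum, were higher on all null arrays, at 1600 to 2370 in null and 654 to 862 in wildtype cells. Of 6 tested 5 (*Dcx*, *Map2*, *Phox2a*, *Sox10*, *Stmn2*) were called higher, *Sox10* with overlapping arrays. *Phox2a* was detected on no wildtype array, so it was kept through the null arrays alone and had to differ. *Sox10* was detected on 4 null and 2 wildtype arrays. *Elavl4* was not called (-0.10). The other 9 of the list, *Tubb3*, *Elavl3* and *Ret* among them, had no kept probe. Of visceral smooth muscle markers 6 of 7 tested were higher, with summed intensities of 7890 to 15600 in null and 3340 to 5550 in wildtype cells. Among the 6, *Myh11* was detected on no wildtype array, so the null arrays alone kept it and it had to differ. Of pancreatic and gut epithelium markers 3 of 4 were higher (359 to 1030 in null and 246 to 333 in wildtype cells), where *Pdx1*, *Epcam* and *Ptf1a* had no kept probe. Beside these counts, 27.0% of all genes tested were called higher and 17.7% lower. In sorted populations, more cells of a type and more RNA per cell cannot be told apart.

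Guidance genes differed between the genotypes in most families, and most of those that differed were higher in null cells. Values are normalized log2 intensities, differences are null minus wildtype, and a gene was called at an adjusted p under 0.05 (limma, Benjamini-Hochberg over all 10766 genes). Of the 43 genes kept 27 were called, beside 44.8% of all genes tested. Those higher in null cells numbered 23 (53.5%, beside 27.0% of all genes) and those lower 4 (9.30%, beside 17.7% of all genes), and 16 were not called. The 23 include *Sema3c*, which passed the detection rule through its null arrays alone and so had to differ. They also include *Epha1*, detected on 4 null arrays and 1 wildtype array, which met the rule mainly through its null arrays. The median difference was 0.39 over the 43 genes and 0.09 over all genes tested. Of 24 ligands 12 were higher and 3 lower, and of 19 receptors 11 were higher and 1 lower. The null arrays lay wholly above or wholly below the wildtype arrays in 22 of the 43 genes (51.2%) and in 40.2% of all genes. Over 2-fold apart were 8 of the 43 (8.02% of all genes), 6 of them higher (14.0%, beside 4.40% of all genes) and 2 lower (4.65%, beside 3.61% of all genes). Another scaling moved these splits. With median absolute deviation scaling 20 were higher and 2 lower, when the median of all genes stood at 0.43 and 29.1% of all genes were higher and 4.80% lower. With median centring 16 were higher and 5 lower, when 13% of all genes were higher and 20.2% lower.

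**Figure D1:**
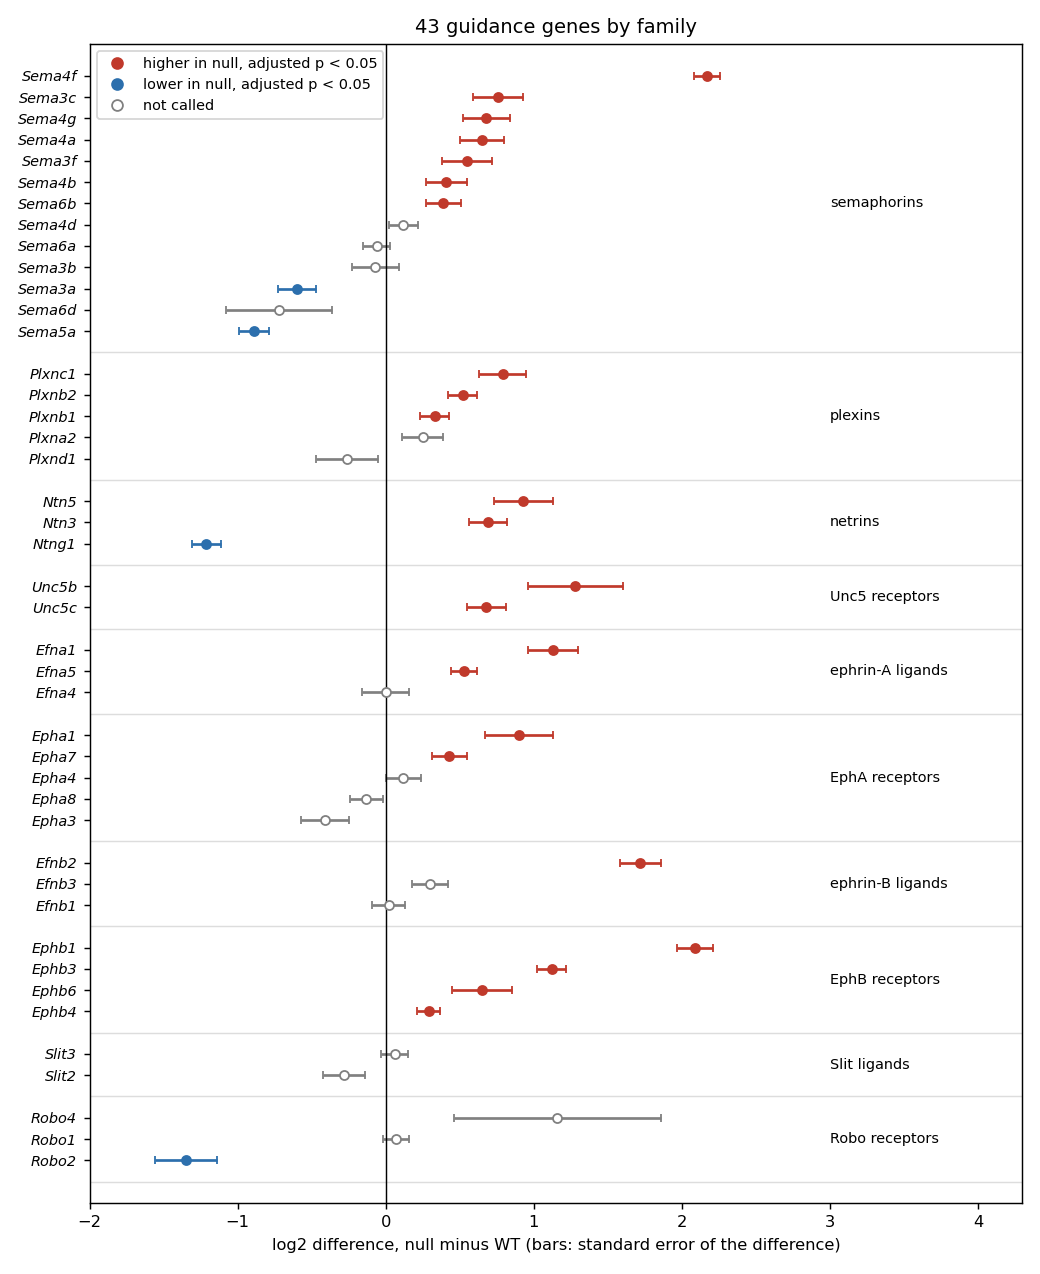
The log2 difference (null minus wildtype) of each of the 43 guidance genes kept, grouped by family, with the standard error of the difference as bars and the call by colour. All 4 EphB receptors and both Unc5 receptors lie right of 0, *Ntng1* and *Robo2* are the genes furthest left, and *Robo4* has the widest bar.

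All 4 EphB receptors kept and 1 of 3 ephrin-B ligands were higher in null cells, with *Ephb1* and its ligand *Efnb2* furthest apart. *Ephb1*, a receptor tyrosine kinase for ephrin-B ligands, measured 9.66, 9.53, 9.49 and 9.75 in null replicates 1 to 4, against 7.40, 7.78, 7.32 and 7.56 in wildtype. All 4 null arrays lay above the brightest wildtype array, and the difference was 2.09 ± 0.12 (SE, 4.26-fold, adjusted p = 5.4e-06, limma). *Efnb2*, a transmembrane ephrin known as a marker of arterial endothelium, measured 9.56, 9.33, 9.37 and 9.70 in null cells, against 7.58, 8.14, 7.60 and 7.75 in wildtype cells. The groups did not overlap for this ligand either, and its difference was 1.72 ± 0.14 (3.3-fold, adjusted p = 4.4e-05, limma).

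*Ephb3*, a further receptor of the same class, measured 6.60, 6.65, 6.55 and 6.42 in null cells and 5.33, 5.31, 5.47 and 5.64 in wildtype cells, a difference of 1.12 ± 0.10 (2.17-fold, adjusted p = 6.4e-05, limma). *Ephb4*, the receptor of ephrin-B2 on venous endothelium, was bright and moved little, at 11.63 ± 0.08 in null and 11.34 ± 0.07 in wildtype cells (SD, n = 4 each), a difference of 0.29 (adjusted p = 0.0168, limma) that missed the threshold without wildtype replicate 4 (0.27, adjusted p = 0.0529). Its other probes gave 0.42 and 0.16. *Ephb6*, an Eph receptor without kinase activity, was called higher (0.65, adjusted p = 0.0263, limma), but null replicate 4 at 5.37 lay within the wildtype range of 4.92 to 5.51. Its call was lost without null replicates 2 or 3 or wildtype replicates 1, 2 or 4, left out in turn (adjusted p = 0.0517 to 0.0767). So all 4 EphB receptors measured were called higher, and the scaling set the outer members: median centring left *Ephb4* uncalled (0.23, adjusted p = 0.217), and *Ephb6* was not called under median absolute deviation scaling (0.63, adjusted p = 0.0558).

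The remaining ephrin-B ligands stayed closer together. *Efnb1* measured 10.19 ± 0.17 in null and 10.17 ± 0.12 in wildtype cells (SD, n = 4 each), a difference of 0.02 ± 0.11 (SE, adjusted p = 0.871, limma). *Efnb3* differed by 0.30 ± 0.12 (adjusted p = 0.0611, limma), and was called without null replicate 1 (0.37, adjusted p = 0.0422) or wildtype replicate 3 (0.36, adjusted p = 0.0377).

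**Figure D2:**
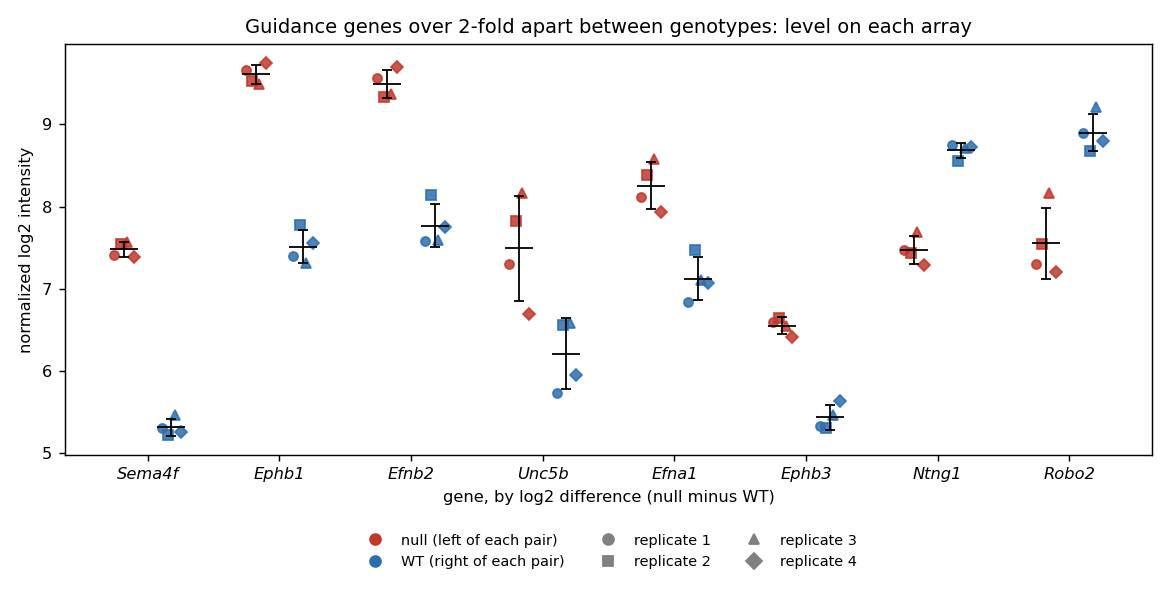
Normalized log2 intensity of the 8 guidance genes that were called and over 2-fold apart, with each array as a point (null left, wildtype right of each pair, the symbol giving the replicate) and the mean and SD in black. Null and wildtype points of each gene do not overlap, and null replicate 4 of *Unc5b*, at 6.69, is closest to the wildtype points.

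Semaphorins moved in both directions. Of the 13 kept, 7 were higher and 2 lower. *Sema4f*, a transmembrane class 4 semaphorin, had the largest difference of the 43 genes at the brightest probe, with 7.41, 7.55, 7.57 and 7.39 in null cells and 5.31, 5.23, 5.47 and 5.26 in wildtype cells. It differed by 2.17 ± 0.09 (SE, 4.49-fold, adjusted p = 1.3e-06, limma). Its other kept probes gave 1.08 and 0.02, so that the size rests on the brightest probe, and the mean over its probes differed by 1.09. Of 5 class 4 semaphorins kept 4 were higher, and *Sema4d* was not called (0.12, adjusted p = 0.349). *Sema4a* measured 7.54, 7.69, 7.77 and 7.27 in null cells and 6.73, 7.17, 7.09 and 6.68 in wildtype cells, so the lowest null array was just above the highest wildtype array (0.65, adjusted p = 0.00803, limma). *Sema4b* (0.41) and *Sema4g* (0.68) were called, with arrays of the genotypes overlapping, and *Sema4b* kept its call only without null replicate 4 or wildtype replicate 3 (adjusted p = 0.0743 to 0.108 without any other array).

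*Sema5a*, a class 5 semaphorin with thrombospondin repeats, was lower in null cells. It measured 11.80, 11.54, 11.67 and 11.91 in null cells and 12.62, 12.53, 12.78 and 12.56 in wildtype cells, a difference of -0.89 ± 0.10 (1.86-fold lower, adjusted p = 2.8e-04, limma). A second bright probe gave -0.90 and a dim probe 0.36.

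*Sema3a*, a secreted ligand of neuropilin 1 and type A plexins, was lower too, at 9.43, 8.98, 9.12 and 9.30 in null cells and 9.72, 9.56, 9.91 and 10.03 in wildtype cells (-0.60, 1.52-fold lower, adjusted p = 0.00697, limma). With median absolute deviation scaling, which moved the median of all genes to 0.43, *Sema3a* (-0.13) and *Sema5a* (-0.02) were not called. *Sema3f*, a secreted ligand of neuropilin 2, was called higher (0.55, adjusted p = 0.0281, limma), with null replicate 4 at 10.47 within the wildtype range of 10.10 to 10.59. The call of *Sema3f* was lost without null replicate 2 or 3 or wildtype replicate 1, 2 or 4 (adjusted p = 0.0523 to 0.0815).

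*Sema3c*, another secreted class 3 semaphorin, was detected on all 4 null arrays and on no wildtype array, so it was kept through the null arrays alone. Its null values were 5.49, 5.35, 6.13 and 5.62, and its wildtype values of 4.63 to 5.08 were not well above background, which puts null cells at least 1.45-fold higher. Its call is no evidence apart from the rule that kept it. *Sema3b* sat near background in both genotypes, with 5.19 ± 0.27 in null and 5.26 ± 0.24 in wildtype cells. *Sema6b*, of class 6, measured 5.90, 5.98, 6.38 and 5.95 in null cells and 5.66, 5.54, 5.84 and 5.61 in wildtype cells (0.39, adjusted p = 0.0296, limma). Its call was lost without null replicate 3 (0.28, adjusted p = 0.0507) or without wildtype replicate 1, 2 or 4 (adjusted p = 0.0657, 0.079 and 0.0758).

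The other class 6 semaphorins were not called at their brightest probe. *Sema6d* measured 6.78, 6.32, 5.36 and 7.43 in null cells and 7.28, 7.31, 6.98 and 7.19 in wildtype cells (-0.72 ± 0.36, adjusted p = 0.131, limma), and without null replicate 4, the array above all wildtype arrays, its difference was -1.04 (adjusted p = 0.0143). *Sema6a* differed by -0.06 ± 0.09 at its brightest probe, while a dim probe that was detected on all wildtype arrays and no null array was at least 1.63-fold lower in null cells. The mean over the probes of *Sema6a* was called lower (-0.30, adjusted p = 0.0322, limma). That mean takes in the dim probe, which was kept through the wildtype arrays alone and so had to differ. The call is therefore no evidence apart from the rule that kept the probe.

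Of the plexins, the receptors of semaphorins, 3 of 5 were higher and 2 were not called. *Plxnc1*, known as the receptor of *Sema7a*, measured 8.68, 8.24, 8.50 and 9.02 in null cells and 7.78, 7.75, 7.70 and 8.03 in wildtype cells. The groups did not overlap (0.79 ± 0.16, 1.73-fold, adjusted p = 0.00459, limma), while a dim second probe gave 0.04. *Plxnb2*, a receptor of class 4 semaphorins, measured 10.66, 10.99, 10.90 and 10.71 in null cells and 10.40, 10.14, 10.35 and 10.30 in wildtype cells (0.52 ± 0.10, 1.43-fold, adjusted p = 0.00394, limma).

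*Plxnb1*, the receptor of *Sema4d*, differed by 0.33 (7.10 ± 0.17 in null and 6.77 ± 0.09 in wildtype cells, SD, n = 4 each, adjusted p = 0.0307, limma). That call was lost without null replicate 2 (0.25) or without wildtype replicate 1 (0.33), 2 (0.28) or 4 (0.34), with adjusted p = 0.0644 to 0.0844. *Plxna2*, a partner of neuropilins, differed by 0.25 (adjusted p = 0.166, limma) and was called without null replicate 4 (0.36, adjusted p = 0.0304). *Plxnd1*, a receptor of class 3 semaphorins on endothelium, measured 8.81 ± 0.43 in null and 9.07 ± 0.21 in wildtype cells (SD, n = 4 each), a difference of -0.26 (adjusted p = 0.316, limma). With the mean of the endothelial markers on each array as a covariate its difference was -0.54 (adjusted p = 0.0281).

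The neuropilins, which take class 3 semaphorins together with plexins and also bind VEGF, were higher in null cells by more than any plexin. *Nrp1* measured 11.89, 12.05, 11.89 and 11.88 in null cells and 9.88, 10.09, 10.16 and 10.01 in wildtype cells (1.89 ± 0.09, 3.71-fold, adjusted p = 2.9e-06, limma). *Nrp2* measured 9.09, 9.39, 9.21 and 9.17 in null cells and 7.18, 7.44, 6.73 and 7.02 in wildtype cells (2.12 ± 0.15, 4.36-fold, adjusted p = 1.6e-05, limma).

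In the Slit and Robo system *Robo2* was called at its brightest probe, and it was lower in null cells. *Robo2*, a Slit receptor, measured 7.30, 7.54, 8.17 and 7.20 in null cells and 8.90, 8.68, 9.21 and 8.80 in wildtype cells at its brightest probe. The groups did not overlap, and the difference was -1.35 ± 0.21 (SE, 2.54-fold lower, adjusted p = 0.00132, limma). It was 2.03 lower on the log2 scale as the mean of its 5 kept probes. At 2 of the other probes no null array was detected and all wildtype arrays were, which gives a signal at least 4.78-fold and at least 4.24-fold lower in null cells. These 2 probes were kept through the wildtype arrays alone and so had to be lower, also within the mean of 5. The last 2 probes, detected on all arrays, gave -1.81 and -2.0.

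*Robo1*, a further Slit receptor, measured 11.93 ± 0.07 in null and 11.86 ± 0.13 in wildtype cells (SD, n = 4 each), with overlapping groups (0.07 ± 0.09, adjusted p = 0.514, limma). The ligand *Slit2* measured 11.45, 10.99, 10.92 and 11.49 in null cells and 11.48, 11.58, 11.35 and 11.56 in wildtype cells (-0.28 ± 0.14, adjusted p = 0.138, limma). Its 5 other probes ran from -1.02 to 0.26. The gene was called lower as the mean of its probes (-0.37, adjusted p = 0.0101) and without null replicate 4 (-0.37, adjusted p = 0.0467), while with median absolute deviation scaling its difference was 0.49 (adjusted p = 0.284). *Slit3* differed by 0.06 ± 0.09 (adjusted p = 0.632, limma).

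*Robo4*, which is known from endothelium, had the widest spread of the 43 genes, with 7.25, 7.90, 8.51 and 5.11 in null cells and 5.72, 7.33, 5.68 and 5.40 in wildtype cells. Its difference of 1.16 ± 0.70 was not called (adjusted p = 0.196, limma), and without null replicate 4 it was 1.86 (adjusted p = 0.00939). Among the null arrays *Robo4* was highest on replicate 3 and lowest on replicate 4, as were the endothelial markers, whose summed intensity ran from 864 to 2720 in null and from 943 to 1580 in wildtype cells. The means of the erythroid, neural, epithelium, smooth muscle and macrophage lists were highest and lowest on the same null arrays, so this order is not particular to endothelial markers. Of 9 endothelial markers tested *Emcn* was higher and *Tek* lower in null cells, and *Kdr*, *Tie1* and *Sox17* had no kept probe.

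**Figure D3:**
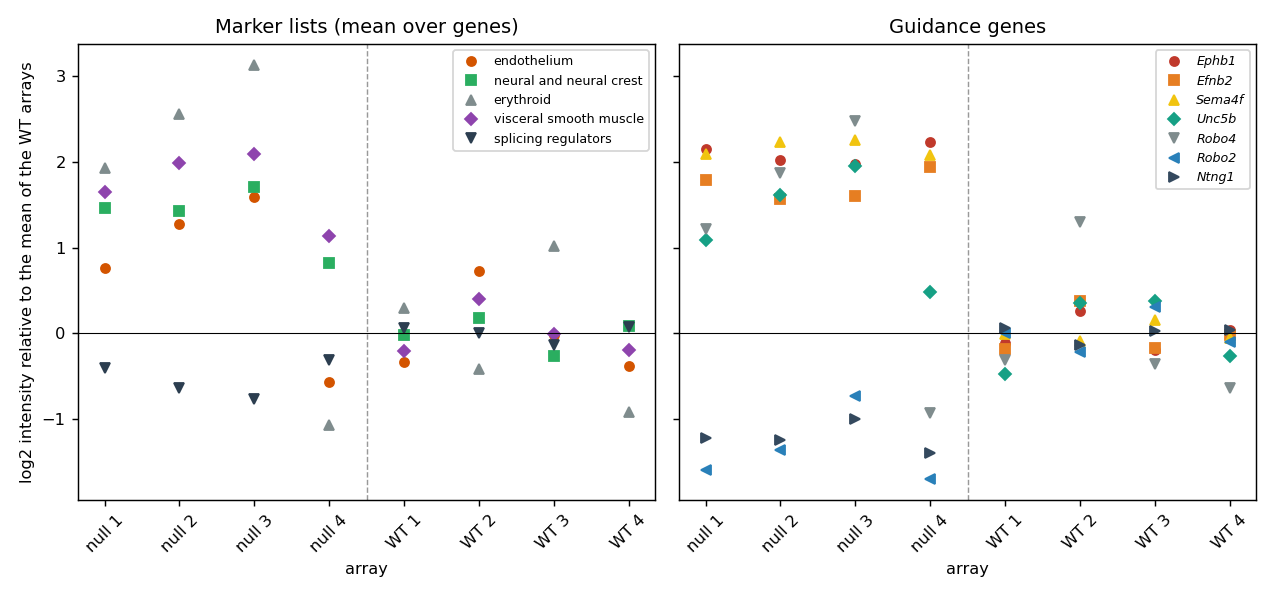
For each array, null replicates left of the dashed line and wildtype replicates right of it, the mean of 5 marker lists (left panel) and the level of 7 guidance genes (right panel), both in log2 relative to the wildtype mean. On null replicate 4 *Robo4* and the endothelial and erythroid lists lie below 0 and *Unc5b* is lowest among the null arrays, while *Ephb1*, *Efnb2* and *Sema4f* lie at 2.24, 1.93 and 2.07 there.

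Netrins and their receptors moved as follows. *Ntng1*, netrin-G1, a membrane-anchored netrin that does not bind the classical netrin receptors, was lower in null cells at 7.47, 7.44, 7.69 and 7.29, against 8.75, 8.55, 8.71 and 8.73 in wildtype cells. This gave -1.21 ± 0.10 (SE, 2.32-fold lower, adjusted p = 4.5e-05, limma), and its other probes gave -1.08 and -0.61. *Ntn3*, a secreted netrin, measured 10.31 ± 0.24 in null and 9.62 ± 0.15 in wildtype cells (SD, n = 4 each) without overlap (0.69 ± 0.13, 1.61-fold, adjusted p = 0.00351, limma), and its other probe gave 0.76. *Ntn5*, a netrin-like gene, was dim, at 5.94, 6.41, 6.75 and 5.88 in null cells and 5.06, 5.50, 5.47 and 5.22 in wildtype cells (0.93 ± 0.20, adjusted p = 0.00576, limma).

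*Unc5b*, a repulsive netrin receptor also known from endothelial tip cells, measured 7.30, 7.82, 8.16 and 6.69 in null cells and 5.74, 6.56, 6.59 and 5.95 in wildtype cells. The lowest null array exceeded the highest wildtype array by little, and the difference was 1.28 ± 0.32 (2.44-fold, adjusted p = 0.0114, limma). With the endothelial markers as a covariate the difference was 0.78 (adjusted p = 0.0082). *Unc5c*, a repulsive receptor of the same family, measured 11.40, 11.23, 11.01 and 11.54 in null cells and 10.76, 10.76, 10.51 and 10.43 in wildtype cells (0.68 ± 0.13, 1.6-fold, adjusted p = 0.00392, limma).

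The probes of *Unc5c* disagreed. Of the 4 others 1 gave 0.62, 1 gave 0.73, 1 gave 0.09 and 1 gave -0.98, and the mean over its 5 probes was not called (0.23, adjusted p = 0.169). The attractive netrin receptor *Dcc* was dim, detected on 2 null and 4 wildtype arrays, and differed by -0.41 (adjusted p = 0.0543, limma). *Neo1*, the receptor of netrins and RGM proteins, was bright and differed by 0.08 (11.02 ± 0.17 in null and 10.93 ± 0.18 in wildtype cells, SD, n = 4 each, adjusted p = 0.588, limma).

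**Figure D4:**
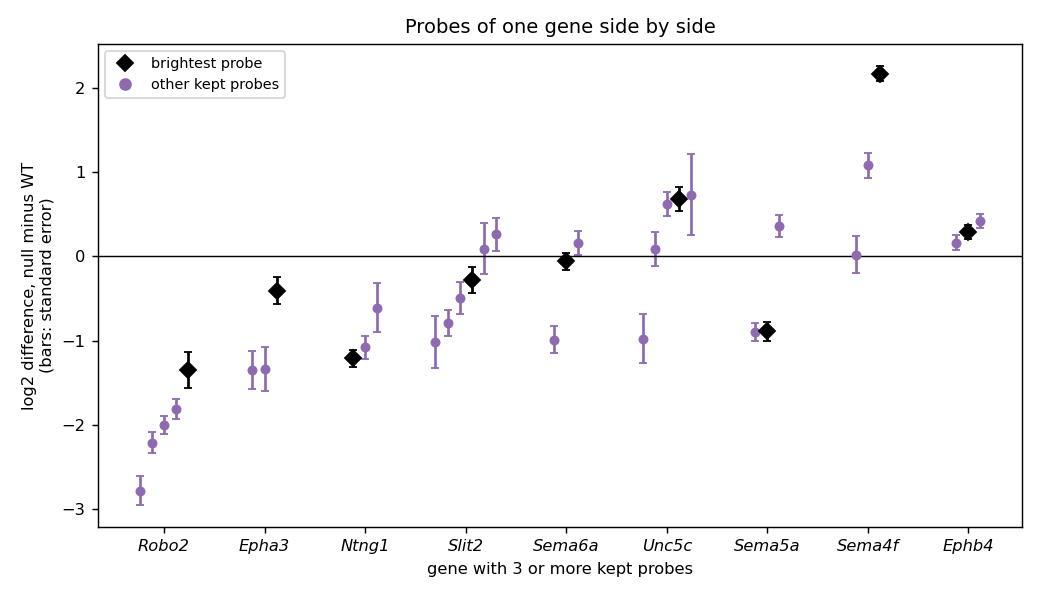
The log2 difference (null minus wildtype) with its standard error at each kept probe of the 9 guidance genes with 3 or more of them, the brightest probe as a black diamond. All probes of *Robo2*, *Epha3*, *Ntng1* and *Ephb4* lie on a single side of 0 within each gene, whereas *Unc5c*, *Slit2*, *Sema6a* and *Sema5a* have probes on both sides. Probes of *Robo2* and *Sema6a* include some kept through the wildtype arrays alone.

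Of the ephrin-A ligands 2 of 3 were higher, and of the EphA receptors 2 of 5. *Efna1*, a ligand anchored to the membrane by a lipid, measured 8.12, 8.39, 8.58 and 7.93 in null cells and 6.84, 7.47, 7.11 and 7.07 in wildtype cells (1.13 ± 0.17, SE, 2.19-fold, adjusted p = 0.00108, limma). *Efna5*, a ligand of the same kind, measured 13.13, 13.30, 13.17 and 13.02 in null cells and 12.47, 12.70, 12.72 and 12.62 in wildtype cells. The groups of *Efna5* did not overlap (0.53 ± 0.09, 1.44-fold, adjusted p = 0.00247, limma), and its second probe gave 0.49. *Efna4* did not differ detectably (0.00 ± 0.16, adjusted p = 0.987, limma).

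Among the receptors of ephrin-A ligands, *Epha7* measured 10.28, 10.37, 10.40 and 10.15 in null cells and 9.72, 10.08, 10.05 and 9.64 in wildtype cells (0.43, adjusted p = 0.02, limma). Its call was lost without null replicate 2 (0.40, adjusted p = 0.052), wildtype replicate 1 (0.38, adjusted p = 0.059) or wildtype replicate 4 (0.35, adjusted p = 0.0586), and its second probe gave 0.24. *Epha1* was called higher (0.90, adjusted p = 0.0136, limma), but was detected on 4 null arrays and on 1 wildtype array, and the groups overlapped.

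*Epha3*, a receptor with high affinity for ephrin-A5, measured 9.94, 9.60, 10.12 and 10.09 in null cells and 10.28, 10.36, 10.05 and 10.70 in wildtype cells and was not called (-0.41 ± 0.16, adjusted p = 0.0638, limma), except without wildtype replicate 3 (-0.51, adjusted p = 0.0315). Its 2 other probes, detected on all arrays, gave -1.34 and -1.35 (adjusted p = 0.00461 and 0.00269 over all probes, limma), and the mean over its probes was called lower (-1.03, adjusted p = 0.00398). *Epha4* (0.12) and *Epha8* (-0.13) were dim and not called.

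Genes that act with these families were counted from lists set by role, with the number of genes kept given for each. Beside them stand the shares over all genes, 27.0% higher and 17.7% lower. Of 9 co-receptors kept of 11 listed, *Nrp1* and *Nrp2* were higher, *Gpc1*, a proteoglycan that binds Slits, was lower (-0.57, adjusted p = 0.00206, limma), and 6 were not called. Of 6 further ligands, 4 were higher and 1 lower, with a median difference of 1.11. *Flrt3*, a membrane protein that binds Unc5 receptors, measured 11.09, 10.94, 11.10 and 11.07 in null cells and 9.52, 10.11, 9.71 and 9.51 in wildtype cells (1.34 ± 0.13, 2.53-fold, adjusted p = 1.3e-04, limma).

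*Flrt1*, of the same family, measured 9.62, 9.79, 10.08 and 9.46 in null cells and 7.85, 8.15, 7.68 and 7.98 in wildtype cells (1.82 ± 0.15, 3.54-fold, adjusted p = 4.1e-05, limma). *Rgma*, a ligand of neogenin, was higher at 11.15 ± 0.06 in null and 10.06 ± 0.13 in wildtype cells (SD, n = 4 each), and *Rgmb* was lower (-1.07, adjusted p = 0.00132, limma). *Rgmb*, the 1 lower gene among the further ligands, was detected on 1 null and 4 wildtype arrays. It thus met the detection rule mainly through the wildtype arrays, where it was high, and its call is weak evidence apart from that rule. *Draxin*, a ligand of *Dcc*, was higher (1.14, adjusted p = 8.4e-04, limma).

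Of 54 cytoplasmic effectors listed 39 were kept, 12 were higher, 10 were lower and 17 were not called, with a median difference of 0.05 (0.09 over all genes), so that the share that was higher lay near that of all genes. *Vav3*, a guanine nucleotide exchange factor used by Eph receptors, measured 7.43, 6.96, 6.95 and 7.50 in null cells and 9.04, 8.92, 9.09 and 9.18 in wildtype cells (-1.85 ± 0.14, 3.6-fold lower, adjusted p = 3.1e-05, limma). Effectors were called in both directions, *Crmp1*, a mediator of class 3 semaphorin signals, at 1.87 and *Limk1*, a cofilin kinase, at 1.25 against the small GTPase *Rac1* at -0.64, all called. *Crmp1* was detected on 4 null and 2 wildtype arrays, so its wildtype level lay near background.

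How firmly these calls stood differed between genes. *Ephb1*, *Ntng1* and *Sema4f* were called in the same direction in every alternative that gave them a value (24, 24 and 23), and *Efnb2*, *Robo2* and *Ephb3* in all but 1. That exception took the mean of the neural markers as a covariate, which itself did not overlap between the genotypes (0.82 to 1.71 in null and -0.26 to 0.18 in wildtype cells), and it left 3 of the 27 called genes called, with wider errors. The differences of *Efnb2*, *Robo2* and *Ephb3* in that fit were 1.84 ± 0.41, -1.98 ± 0.56 and 0.95 ± 0.29 (SE). The splicing regulators, listed as a possible sign of RNA handling, were also lower in null cells without overlap (-0.77 to -0.31 in null and -0.13 to 0.07 in wildtype cells, 17 of 33 tested lower), and with that list as a covariate 9 of the 27 remained called. The endothelial list overlapped between the genotypes, and with it as a covariate 21 of the 27 remained called. *Xist*, which differs between the sexes, was lower in null cells (9.67 ± 0.33 in null and 11.65 ± 0.73 in wildtype cells, SD, n = 4 each). The Y-linked genes *Eif2s3y* (1.03), *Kdm5d* (0.77) and *Uty* (0.11) were detected on all arrays and not called (adjusted p = 0.0633, 0.125 and 0.545, limma). *Ddx3y* had no kept probe. With *Xist* as a covariate 7 of the 27 remained called. Calls fell over all genes as well, from 27.0% higher and 17.7% lower without a covariate. They fell to 0.613% and 0.353% with the neural markers and to 5.19% and 3.19% with the splicing regulators. With *Xist* they were 1.89% and 0.957%, and with the endothelial list 19.6% and 12.8%. The part of these cell types, of RNA handling and of sex in the results was not tested beyond these fits.

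Null replicate 4 had lower means of the endothelial and erythroid markers than any wildtype array. On that array 23 of the 27 called genes lay beyond all wildtype arrays, and the exceptions were *Ephb6*, *Sema3f*, *Sema4b* and *Sema4g*. The calls were made with that array included, and 22 of the 27 genes did not overlap between the genotypes on any array. That count therefore follows largely from the calls, and the same share over all called genes was not taken. Of the 23 higher genes 13 had their lowest null value on that array. The distance of that array from the wildtype mean was 2.24 for *Ephb1*, 1.93 for *Efnb2*, 2.07 for *Sema4f*, -1.70 for *Robo2* and -1.40 for *Ntng1*, but 0.48 for *Unc5b* and 0.57 for *Ntn5*.

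The promoters of the guidance genes kept, called or not, were read for the core letters TAAGTG and TGAGTG, the kind of site bound by NK homeodomain proteins such as Bapx1. The windows ran over 250 bases before to 50 after each start in RefSeq (GRCm38.p6), on both strands and with overlapping matches counted. Such letters occurred in 12 of 52 windows of guidance genes (23.1%) and in 23.9% of all 32851 windows. They occurred in 6 of 22 higher genes with a window, 2 of 4 lower genes and 2 of 13 genes that were not called. Matches upstream of the start are shown for the genes over 2-fold that had any and for *Sema3a*, with the motif in capitals (CACTCA is TGAGTG on the other strand). They lie 54 bases before the start of *Sema4f* (chr6:82939808-82939833, minus strand), 118 and 86 before that of *Ephb3* (chr16:21204667-21204692 and chr16:21204699-21204724, plus strand), 210 before a start of *Efna1* (chr3:89279840-89279865, minus strand), 32 before that of *Ntng1* (chr3:110143489-110143514, minus strand) and 89 before that of *Sema3a* (chr5:13396685-13396710, plus strand).
Sema4f: gtccctcctcCACTCAattttcattg
Ephb3, 118 before: gggcggtctgTGAGTGggcggccggc
Ephb3, 86 before: gggcgtggccTGAGTGttgacgggca
Efna1: cccacacccgTAAGTGagcacacaca
Ntng1: atttctgactTGAGTGgaggaatgcg
Sema3a: agcctgtgatCACTCAccagtggcag
Genes higher in null (*Sema4f*, *Ephb3*, *Efna1*) and lower in null (*Ntng1*, *Sema3a*) both carried the letters, and *Ephb1*, *Efnb2*, *Robo2* and *Unc5b* did not in these windows. *Epha7*, *Plxnb2* and *Sema4a*, also called higher, had upstream matches that are not printed, so the printed set does not show the share of each direction. A match of 6 letters is a description of the sequence and not a binding site.

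The genes not kept were *Sema3d*, *Sema3e*, *Sema3g*, *Sema4c*, *Sema6c*, *Sema7a*, *Plxna1*, *Plxna3*, *Plxna4*, *Plxnb3*, *Epha2*, *Epha5*, *Epha6*, *Epha10*, *Efna2*, *Efna3*, *Slit1*, *Ntn4*, *Ntng2*, *Unc5a* and *Unc5d*, with *Unc5cl* and *Unc50*, which share the letters but are no netrin receptors. For 7 of these 23 genes no probe could be matched between the deposited tables, and these probes were detected on fewer than 4 arrays. Just outside the rule lay *Plxna3*, detected on 3 wildtype arrays and no null array, *Plxnb3*, on 2 wildtype arrays, and *Sema7a*, the ligand of *Plxnc1*, on 2 null arrays. Just inside lay *Sema3c* on 4 arrays, *Epha1* on 5 and *Sema3b* on 6, while 36 of the 43 genes were detected on all 8. *Ephb2*, *Ntn1* and *Robo3* were not among the 66 annotated genes, so the EphB, netrin and Robo families were not read in full.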

How the data were processed

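RNA of *Bapx1*-EGFP positive spleen cells was amplified, labelled and hybridized to 8 single-colour arrays, 4 null and 4 wildtype, grouped by the labels. The authors exported probe intensity values from GenomeStudio, background-subtracted and deposited without normalization between arrays. The deposited detection p-value columns hold 1 minus p and were turned. The log2 values deposited by the authors are the same signals relative to each array's median and a baseline per probe of unstated source, and served as an alternative. Of 45281 probes 34536 could be joined between the tables, among them all 19841 detected on at least 4 arrays. The array count limits the precision.

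Signals were normalized by neqc (normexp, offset 16, quantile, log2) in limma 3.58.1 under R 4.3.3. The study's methods name another scaling and ANOVA, which were run as alternatives. Probes with detection p under 0.05 on at least 4 of 8 arrays were kept, and the brightest kept probe stood for a gene. Null was set against wildtype by lmFit and eBayes with genotype alone, two-sided, with Benjamini-Hochberg adjustment over 10766 genes. Where 1 genotype was not above background, values of that genotype below the faintest detected probe of their array were set to it, and the fold is a lower bound. The fit was tested on simulated data. Named are the called members whose genotypes do not overlap (up to 24), the brightest of each family, members detected in 1 genotype only, *Nrp1*, *Nrp2*, *Dcc*, *Neo1* and the 4 pathway genes with the largest moderated t. Other members and pathway genes were named after their values were seen. Members and lists were chosen with earlier results of these data known.

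As alternatives the scaling was replaced by median centring or by median absolute deviation scaling, the normexp step was left out or given an offset of 50, and the value table took the place of the signals. The filter was dropped, set at the 20th percentile of signal, or tightened to detection p under 0.01 on all 8 arrays. All kept probes of a gene were averaged, the test was the ANOVA of the methods, the replicate number entered as a block, and the splicing regulators or *Xist* entered as a covariate. The 3 arrays lowest on the splicing regulators, and each array in turn, were left out. Endothelial and neural markers as covariates were added after seeing the data.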

Additional observations from a re-analysis of the deposited data

Results flagged for a closer look

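Among 68 sets of 4 arrays of a genotype, those of the named genes, 2 held an array far from the other 3 by Dixon's test. Chance gives such a gap in about 1 in 20 sets. *Sema6b* measured 6.38 on null replicate 3, with 5.90 to 5.98 on the other null arrays. *Nrp1* measured 12.05 on null replicate 2, with 11.88 to 11.89 on the others, a distance that is small beside its difference of 1.89 between the genotypes.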

How the results depend on the processing

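The counts moved most with covariates that differ between the genotypes. With the splicing regulators as a covariate 7 guidance genes were higher and 12 pathway genes were called, against 23 and 30 in the reported fit. With *Xist* these counts were 4 and 6, and with the neural markers 2 and 1, when 1 guidance gene was lower and 3 were over 2-fold. Of all genes 5.19%, 1.89% and 0.613% were higher in these fits, in that order, beside 27.0% in the reported fit. The cause was not tested. Among called genes, *Unc5b* turned to -0.33 with the splicing regulators and -0.29 with the neural markers, *Ntn5* to -0.05 with the splicing regulators, and *Sema6b* to -0.07 with the splicing regulators and -0.07 with *Xist*. Of the called genes whose arrays overlap, *Ephb6* turned to -0.31, *Sema3f* to -0.29, *Sema4b* to -0.18 and *Sema4g* to -0.04 with the splicing regulators, *Ephb6* to -0.08, *Sema3f* to -0.01 and *Sema4b* to -0.18 with *Xist*, and *Ephb6* to -0.07 and *Sema3f* to -0.11 with the neural markers. None was called there. Of the uncalled genes, *Slit2* turned to 0.49 with median absolute deviation scaling, 0.41 with the splicing regulators, 0.10 with *Xist* and 0.19 with the neural markers, and *Epha3* to 0.17 with that scaling and 0.03 with *Xist*. *Efnb1*, at 0.02, turned to -0.09 with median centring, -0.39 with the splicing regulators, -0.36 with *Xist*, -0.05 with the endothelial and -0.24 with the neural markers and -0.06 when the 3 arrays with the lowest splicing regulators were dropped, and ran from -0.05 to 0.08 with each array left out. *Robo1* turned to -0.17 with the neural markers, and *Neo1* to -0.01 with median centring and ran from -0.00 to 0.14 with each array left out. Median absolute deviation scaling left 2 genes lower and 14 over 2-fold, where the reported fit had 4 and 8, the mean of all kept probes gave 7 lower, and an offset of 50, which shrinks folds of dim probes, gave 5 over 2-fold. The 7 include *Sema6a*, whose mean takes in a probe kept through the wildtype arrays alone. Leaving out each array in turn gave 16 (without wildtype replicate 4) to 25 (without null replicate 4) genes higher, 4 to 6 lower, 8 to 11 over 2-fold and 22 to 36 pathway genes called. The ANOVA of the methods called 19 higher and 4 lower. Of the differences of single named genes under all alternatives, 693 kept direction and side of the threshold, 84 lost the call, 10 gained it and 23 turned.

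Whether the replicate numbers pair the arrays is not stated. Same-numbered null and wildtype arrays correlated in their deviations at 0.12, 0.05, 0.32 and 0.38, and differently numbered arrays at -0.37 to 0.34. These values do not settle whether the arrays are paired. With the replicate block 23 genes were higher and 4 lower, and 26 of 27 kept their call: *Plxnb1* lost it (adjusted p = 0.057) and *Efnb3* gained it (0.30, adjusted p = 0.0215). With 4 arrays a genotype and folds compressed near background, small differences of dim probes are not resolved.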
